A study of Arabidopsis thaliana with 10 samples.

Results

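LHB1B2 and PSAN are nuclear genes for proteins of the light-harvesting machinery of Arabidopsis thaliana chloroplasts, and both were followed through 2 opposite changes of light quality. They were chosen by name, as the spots paired with exactly 1 gene where that gene is LHB1B2 (AT2G34420) or PSAN (AT5G64040). This gave 2 genes, each with 1 spot, out of 644 genes with a spot of their own and 3261 features in all. Both had a ratio above 0 in all 10 columns.

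Col-0 plants grew on soil under white light for 21 days in short days (8 h light, 16 h dark). They were then kept for 3 days in light absorbed mainly by photosystem I (PSI light) or by photosystem II (PSII light). Leaf material was harvested 30 min, 2 h, 8 h or 48 h after transfer to the opposite light, and a white light column accompanies each shift. Pools held at least 250 to 500 individuals. The labels name thylakoid membranes as the source but describe total RNA from leaves, hybridised as radioactive cDNA to nylon filters with 3292 gene-sequence tags. Ratios hold no levels, so the tissue could not be checked against marker genes, and in whole leaves fewer cells of a type and less RNA per cell cannot be told apart.

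Each condition has 1 column, although 3 independent experiments are described, so no value below has an error and no difference was tested. The depth of the signal behind a ratio is unknown. Values are log2 ratios minus the median log2 ratio of their column, unless named as deposited, and a value is counted as changed at 2-fold or more. Column medians ran from 0.588 to 1.26 as ratios. Ratios were read as the condition over plants sampled before the shift. That direction was taken as likely from the design text, which places the reference sampling before each shift. No label states it, and every "higher" and "lower" turns round if it is wrong. The sample titles name the light before the shift first, as in PSI_vs_PSII for the shift to PSII light. Read as a ratio, that order would be the other direction. No source used here says what the white light columns stand against.

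Photosystems II and I work in series in the thylakoid membrane, linked by plastoquinone, the cytochrome b6f complex and plastocyanin. Light that favours photosystem II drives electrons into the plastoquinone pool and reduces it, and light that favours photosystem I drains and oxidises it. Plants answer such an imbalance first by moving part of the mobile antenna, LHCII, between the photosystems, after its phosphorylation by the kinase STN7, and over longer times by changing the ratio of the photosystems and of their antennae. LHB1B2, also called LHCB1.5, encodes a chlorophyll a/b-binding protein of the LHCB1 type, a building block of LHCII trimers. PSAN encodes subunit N of photosystem I, a protein on the lumen side of the complex that takes part in its interaction with plastocyanin.

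The antenna gene LHB1B2 was low at 2 h and 8 h of PSII light, high at 30 min of PSI light and lowest at 48 h of PSI light. No label states the direction of any column. If the ratios at 2 h and 48 h of PSI light alone are inverted, as 1 alternative, the 48 h value becomes the highest of the gene, at 3.44. Its deposited ratios in PSII light were 0.714, 0.338, 0.444 and 0.622, in the order of the 4 times. In PSI light they were 1.67, 1.06, 0.802 and 0.116 in that order. In white light it was 0.603 in the column of the PSII shift and 0.766 in that of the PSI shift. The ratio was thus below 1 in 8 of 10 columns. Most column medians were below 1 as well. Those above 1 were 1.16 at 8 h of PSII light, and 1.12 and 1.26 at 2 h and 48 h of PSI light. The LHB1B2 ratio of 0.116 stood apart from all its others.

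Relative to the column median, LHB1B2 lay at −0.25, −1.47, −1.38 and 0.08 from 30 min to 48 h of PSII light. At 2 h it was 0.362 times the median, in a column where 2.73% of features were lower by 2-fold or more, and only 20 of 3113 features lay below it. At 8 h it was 0.384 times the median, where 1.91% of features were lower by 2-fold or more, and 21 of 3145 lay below it. At 30 min and 48 h it was well inside the bulk of the features, with 27.4% and 54.6% of them below it. Lower by 2-fold or more at both 2 h and 8 h were 32 of 3097 features, and 22 of these, LHB1B2 among them, were within 2-fold of the median at 30 min and 48 h.

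In PSI light LHB1B2 started at 1.20 at 30 min, that is 2.30 times the median, in a column where 4.67% of features were higher by 2-fold or more. It then lay at −0.08 at 2 h and 0.22 at 8 h, both close to the median. At 48 h it was −3.44, or 0.0924 times the median, with 7 of 3163 features below it and 7.30% of all features lower by 2-fold or more. After quantile normalization this value was −1.84 and with a pseudocount −1.61, smaller but still past 2-fold. Of the 145 features higher at 30 min by 2-fold or more, 53 were lower by 2-fold or more at 48 h, LHB1B2 included. The spread of LHB1B2 over the 10 columns was 4.64 on the log2 scale, against a median of 1.19 over the 2783 features with a value in every column, and 16 of those had a larger spread.

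**Figure D1:**
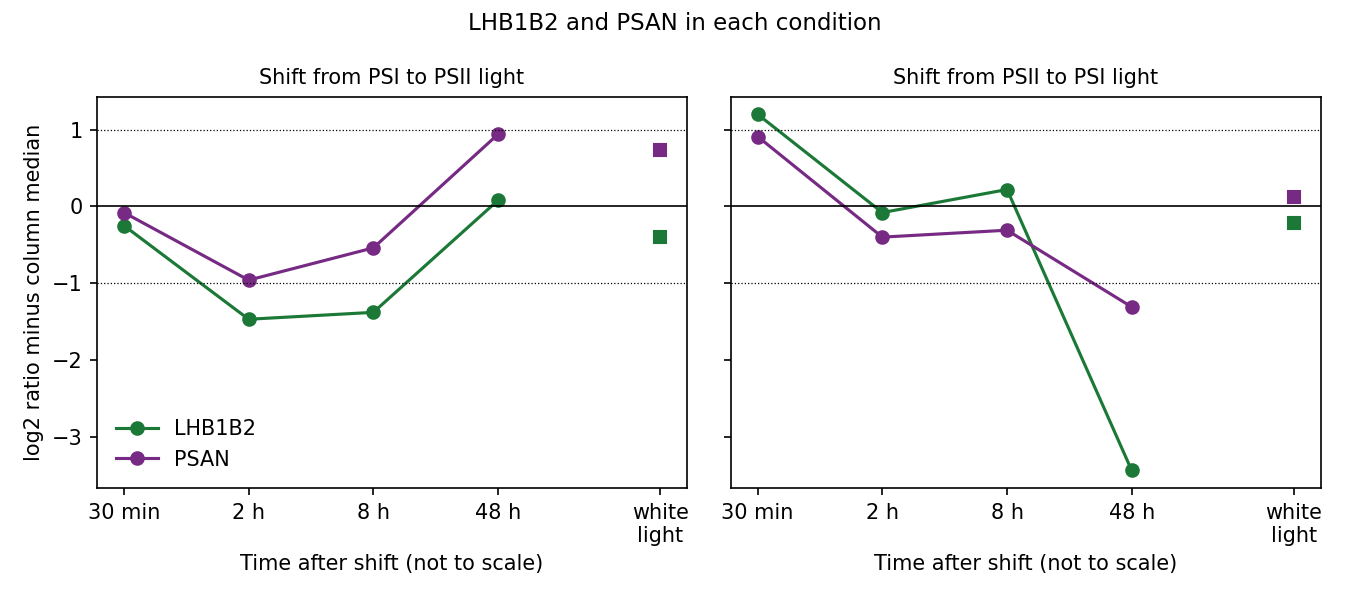
Log2 ratio minus column median of LHB1B2 (green) and PSAN (purple) by time after the shift to PSII light (left) and to PSI light (right), with the white light columns as squares; each point is 1 column, with no error available, and dotted lines mark 2-fold. Both genes dip at 2 h of PSII light and start high at 30 min of PSI light, and LHB1B2 ends at −3.44 at 48 h of PSI light.

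The photosystem I gene PSAN moved over a smaller range in the same general course. Its deposited ratios in PSII light were 0.804, 0.480, 0.795 and 1.13, in time order. In PSI light PSAN had 1.36, 0.850, 0.554 and 0.509. In white light it was 1.33 in the column of the PSII shift and 0.963 in that of the PSI shift. As deposited, PSAN was below 1 in 7 of 10 columns, and the column medians were also below 1 in most columns. The PSAN ratios at 48 h were on opposite sides of 1 in the 2 shifts.

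Relative to the median, PSAN lay at −0.08, −0.96, −0.54 and 0.94 from 30 min to 48 h of PSII light. Its value at 2 h, 0.514 times the median, was just under 2-fold and had 2.96% of features below it. As deposited, the log2 value at 2 h was −1.06, past 2-fold. At 48 h it stood at 1.92 times the median, where 14.9% of features were higher.

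In PSI light PSAN lay at 0.91, −0.40, −0.31 and −1.31. At 30 min it was at 1.88 times the median with 5.69% of features above it. The value at 48 h, 0.404 times the median, was the only 1 of the 10 to be 2-fold or more from the median, and 4.81% of features were below it. As deposited it was −0.98, just under 2-fold. Over all columns PSAN spanned 2.25 on the log2 scale, and 371 of the 2783 complete features spanned more.

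**Figure D2:**
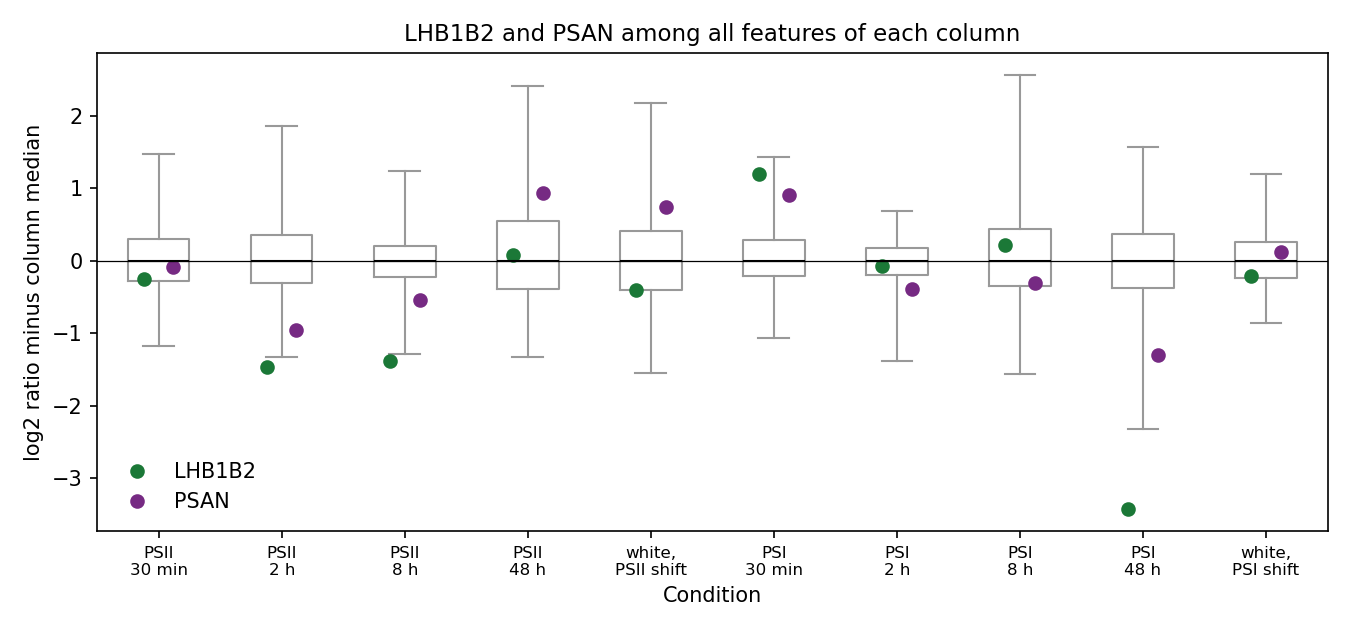
Log2 ratio minus column median of all features in each of the 10 columns, as boxes from the lower to the upper quartile with whiskers from the 1st to the 99th percentile, and LHB1B2 (green) and PSAN (purple) as points. LHB1B2 lies below the lower whisker at 2 h and 8 h of PSII light and at 48 h of PSI light, whereas PSAN stays between the whiskers in every column.

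The conditions were ordered by their values for each gene. Relative to the median, both had their lowest value at 48 h of PSI light, the next at 2 h and the third at 8 h of PSII light. As deposited this held for LHB1B2, while PSAN was lowest at 2 h of PSII light, followed by 48 h and 8 h in PSI light. After quantile normalization it also held for LHB1B2, while PSAN was lowest at 2 h of PSII light, followed by 48 h of PSI light. After inverting 2 h and 48 h of PSI light, 48 h of PSI light was the highest condition of both genes, at 3.44 and 1.31. At the high end, relative to the median, LHB1B2 was highest at 30 min of PSI light, followed by 8 h of that light and 48 h of PSII light. As deposited it was highest there too, followed by 2 h and 8 h of PSI light. Relative to the median, PSAN was highest at 48 h of PSII light, followed by 30 min of PSI light and the white light column of the PSII shift. As deposited and after quantile normalization, PSAN was instead highest at 30 min of PSI light, followed by that white light column and 48 h of PSII light. Without replicate columns it cannot be said which neighbours in these orders differ.

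Steps between neighbouring times of a shift do not contain the plants sampled before the shift, if the time points of that shift share this reference. From 30 min to 2 h of PSII light LHB1B2 decreased by 1.21 on the log2 scale, and 0.782% of features had a step down of 2-fold or more there. PSAN decreased by 0.88 in that step, with 1.30% of features below it. Between 2 h and 8 h LHB1B2 had a step of 0.09 and PSAN one of 0.42, so both stayed under 2-fold.

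From 8 h to 48 h of PSII light the steps were 1.46 for LHB1B2 and 1.48 for PSAN, both past 2-fold, as were 12.4% of features in that direction. As deposited they were 0.49 and 0.50 and thus under 2-fold, and the median ratio of the column was 1.16 at 8 h and 0.588 at 48 h. In PSI light, the steps between 30 min and 2 h were −1.28 and −1.31, where 7.04% of features had a step down of 2-fold or more. As deposited they were −0.65 and −0.68. In both of these steps the genes moved by nearly the same amount. Centring takes the same value from both genes, so these 2 scales cannot differ in this. After quantile normalization the steps of LHB1B2 and PSAN were 1.63 and 1.22 in PSII light, and −1.42 and −1.49 in PSI light.

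The last step in PSI light separated the genes. From 8 h to 48 h LHB1B2 decreased by 3.66, a ratio of 0.0792 between the later and the earlier time, and 0.718% of features had a deeper step. PSAN stood at 0.501 of its value at 8 h, at the edge of 2-fold, in a step where 16.9% of features were lower by 2-fold or more. As deposited the PSAN step was −0.12 and the LHB1B2 step −2.78, and after quantile normalization they were −0.47 and −1.99. With the 48 h column inverted they were 1.62 and 3.21. Over all of PSI light, 30 min to 48 h, the change was −4.64 for LHB1B2 and −2.22 for PSAN, where 13.5% of features were lower by 2-fold or more. From 30 min to 48 h of PSII light it was 0.34 for LHB1B2 and 1.02 for PSAN, where 5.35% were higher by 2-fold or more. As deposited it was −0.20 for LHB1B2, on the other side of 0, and 0.49 for PSAN, under 2-fold.

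**Figure D3:**
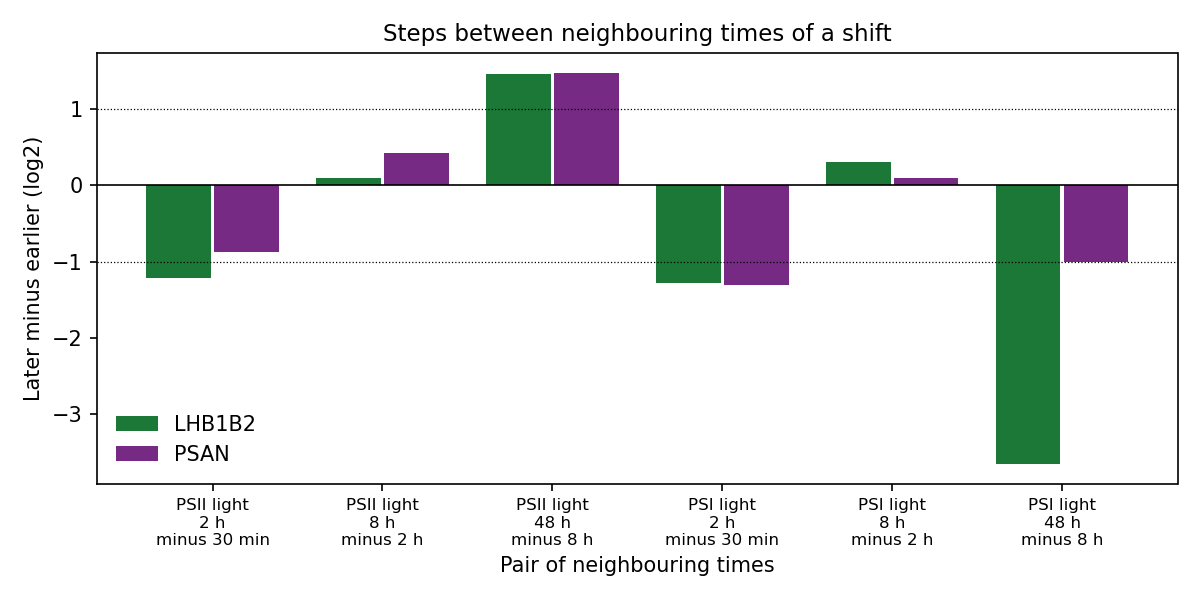
Difference of the log2 ratio between neighbouring times (later minus earlier, each relative to its column median) for LHB1B2 (green) and PSAN (purple), with dotted lines at 2-fold. The bars of the genes are nearly equal for 48 h minus 8 h of PSII light and 2 h minus 30 min of PSI light, and differ most for 48 h minus 8 h of PSI light.

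The opposite shifts were set side by side at matched times, each against its own reference. The references of the shifts differ, so what follows are ratios of ratios and compare changes, not levels. At 30 min the LHB1B2 ratio in PSII light was 0.364 times its ratio in PSI light, at 2 h 0.381 times and at 8 h 0.329 times. The shares of features with a ratio lower in PSII light by 2-fold or more were 5.25%, 5.10% and 10.9% at these times. At 48 h the order was turned, with the LHB1B2 ratio in PSII light 11.5 times that in PSI light. There, 20.4% of features were higher by 2-fold or more.

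The PSAN ratio in PSII light was 0.502 times that in PSI light at 30 min, 0.676 times at 2 h and 0.852 times at 8 h, none past 2-fold. At 48 h it was 4.75 times that in PSI light. The log2 difference was 2.25, which was 1.15 as deposited and 1.29 after quantile normalization. That of LHB1B2 was 3.52, and 1.87 after quantile normalization. Both genes therefore had the lower ratio in PSII light at the first 3 times and the higher one at 48 h. As deposited, the difference of PSAN at 8 h was 0.52, on the other side of 0, and the differences of LHB1B2 kept their signs, with −1.22, −1.65, −0.85 and 2.42. With the 48 h column of PSI light inverted, the 48 h differences were −3.35 for LHB1B2 and −0.37 for PSAN, on the same side as at the earlier times.

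Neither gene was 2-fold or more from the median in white light. LHB1B2 lay at −0.40 in the column of the PSII shift and −0.22 in that of the PSI shift. PSAN lay at 0.74 and 0.12. The difference between the white light columns was −0.19 for LHB1B2 and 0.63 for PSAN, both under 2-fold.

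The difference between the genes within a column does not depend on where the column is centred. LHB1B2 minus PSAN was −0.17, −0.51, −0.84 and −0.86 from 30 min to 48 h of PSII light and −1.14 in its white light column. In PSI light it was 0.29, 0.32 and 0.53 at the first 3 times and −2.13 at 48 h, with −0.33 in white light. After quantile normalization the difference at 48 h of PSI light was −1.08. LHB1B2 had the lower ratio in every column of the PSII shift and the higher one at 30 min, 2 h and 8 h of PSI light. The genes were 2-fold or more apart in 2 of 10 columns, PSII-shift white light and 48 h of PSI light, and on the same side of the column median in 7. No such counts for other pairs of genes stand beside these, so they describe this pair only.

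Few relatives of these genes could be measured. Of 65 nuclear genes for antenna proteins, photosystem subunits, electron carriers and antenna import and control, 5 had a spot of their own. LHB1B2 was 1 of 15 photosystem II antenna genes and PSAN 1 of 12 photosystem I core genes. The other 3 were PSBW and PSBY, which encode small proteins of the photosystem II core, and PSB27, a photosystem II assembly and repair factor, out of 14 genes of the photosystem II core list. None of 6 photosystem I antenna genes, 7 electron carrier genes and 11 import and control genes, STN7 included, had such a spot. LHB1B2 is 1 of 5 LHCB1 genes in the gene table, with LHB1B1 as its neighbour in the genome, and none of the other LHCB1 genes had a spot paired with it alone. No source used here says how well the spotted tag separates these closely similar transcripts, so the values of LHB1B2 are uncertain to that extent.

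Among the 5 photosystem genes, 5 of 50 values were higher and 6 lower by 2-fold or more, that is 5 genes in 10 columns, against 5.33% and 2.97% of all values of all features. These counts include the values already described: LHB1B2 gave 3 of the lower and 1 of the higher, and PSAN 1 of the lower. At 48 h of PSII light all 5 lay above the median, with a list median of 0.94, and 2 of them, PSBW at 1.19 and PSBY at 1.41, were higher by 2-fold or more, as were 13.6% of features. The median ratio of that column was 0.588. As deposited, LHB1B2 at 0.622 and PSB27 at 0.81 were below 1 there, while PSAN, PSBW and PSBY were above 1. At 8 h of PSII light all 5 lay below the median, from −1.38 for LHB1B2 to −0.17 for PSBY. As deposited only PSBY, at 1.03, was above 1 at 8 h, where the column median was 1.16. The dip at 2 h of PSII light was not common to them, since PSBW lay at 0.11 and PSBY at 0.24 there.

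At 48 h of PSI light LHB1B2, PSBW and PSAN were lower by 2-fold or more, as were 7.30% of features. PSBW was at −2.96, while PSBY lay at −0.74. PSB27 went the other way with 1.23, in a column where 4.68% of features were higher by 2-fold or more. At 30 min of PSI light LHB1B2 and PSBY, at 1.09, were higher by 2-fold or more, as were 4.67% of features. PSB27 was at −1.21 there, and 1.19% of features were lower by 2-fold or more. PSB27 thus lay opposite to LHB1B2 and PSAN at both ends of the shift to PSI light.

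**Figure D4:**
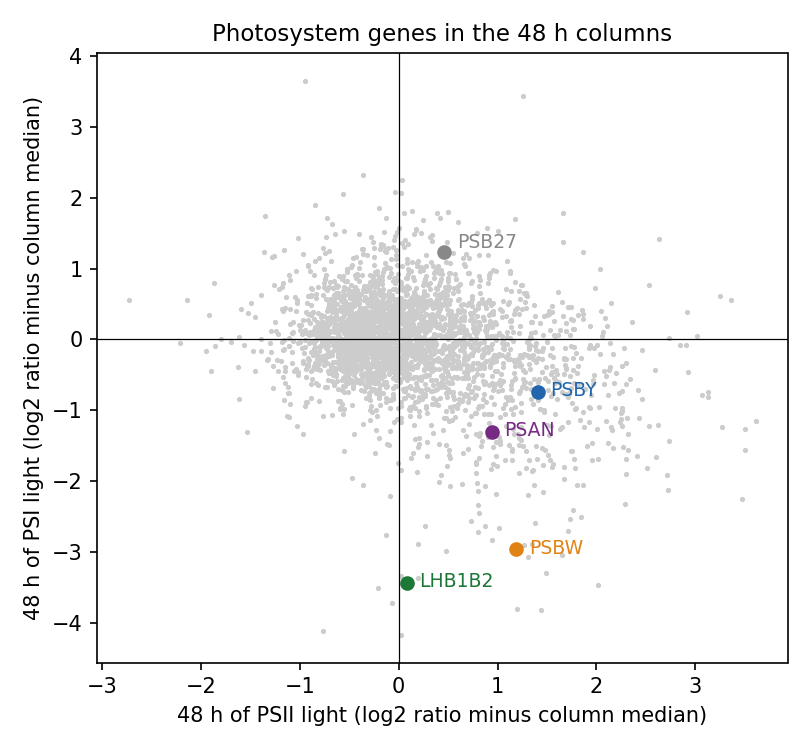
Log2 ratio minus column median at 48 h of PSII light (horizontal) and 48 h of PSI light (vertical) for all features with both values (grey) and the 5 measured photosystem genes. LHB1B2 sits at 0.08 and −3.44, PSAN at 0.94 and −1.31, and PSB27 is the one photosystem gene above 0 on both axes.

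Across the 10 columns the genes had a Pearson's r of 0.793 with each other. It is given as a description, since the columns of a shift may share a reference and the points cannot be taken as independent. Among 550 other genes with a spot of their own and a value in every column, PSAN ranked 11 by its r to LHB1B2, and LHB1B2 ranked 8 by its r to PSAN. As deposited r was 0.643. Without the 48 h column of PSI light, where both genes were lowest relative to the median, r over 9 columns was 0.699.

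The genes most like LHB1B2 were AT3G26630 with r of 0.965, AT3G22690 with 0.907 and PSBW with 0.881. AT3G26630 lay at −0.17, −0.96, −1.32 and 0.41 in PSII light and at 0.98, −0.10, 0.56 and −2.01 in PSI light, so it had the dip at 2 h and 8 h of PSII light as well as the low value at 48 h of PSI light. It kept an r of 0.966 without the latter column, whereas that of PSBW was 0.625 and its rank 26. AT3G26630 was picked by its r over these same columns, so its like course is not a separate observation. After inverting 2 h and 48 h of PSI light AT3G26630 still ranked 1, with PSBW at rank 2 and AT3G22690 at rank 7. The gene least like LHB1B2 was AT2G47390 with −0.933, whose value at 48 h of PSI light was 0.88. Without that column AT2G47390 had −0.806 and rank 546. As deposited it had −0.779 and rank 528, and the gene least like LHB1B2 was PSB27 with −0.896.

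The genes most like PSAN were PSBY with r of 0.864, AT3G22690 with 0.843 and AT2G37510 with 0.836. AT3G22690 was thus among the 3 most like either gene, with 1.39 at 30 min and −1.56 at 48 h of PSI light. It was at −0.92 at 2 h of PSII light, near the −0.96 of PSAN, but at 0.94 in the white light column of the PSI shift, where PSAN lay at 0.12. PSBY lay at 0.24 at 2 h of PSII light, where PSAN had its dip. These likenesses depend on the scale and direction used. As deposited r was 0.705 for PSBY, 0.711 for AT3G22690 and 0.555 for AT2G37510. After inverting 2 h and 48 h of PSI light it was 0.620, 0.816 and 0.686, which placed AT3G22690 at rank 1, PSBY at rank 20 and AT2G37510 at rank 14. The gene least like PSAN was AT4G23110 with −0.832, which had −0.693 and rank 536 as deposited.

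**Figure D5:**
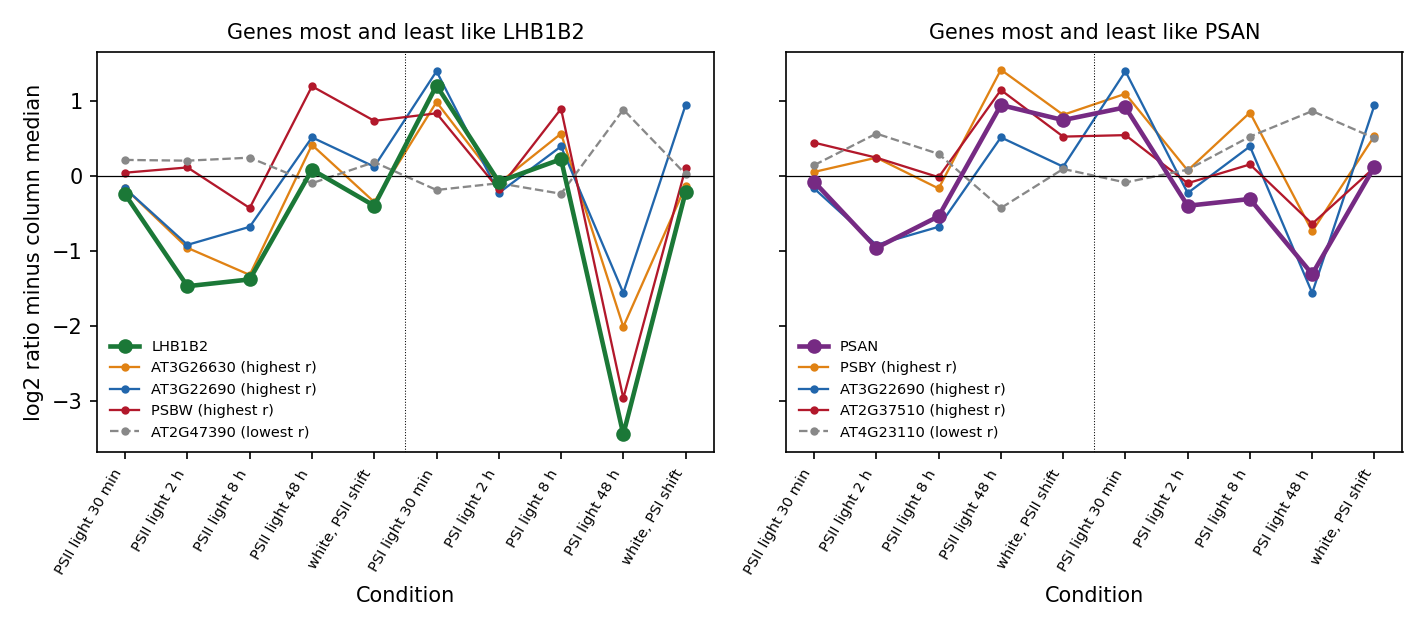
Log2 ratio minus column median over the 10 columns for LHB1B2 (left, thick green) and PSAN (right, thick purple), each with the 3 genes of highest r (thin lines) and the gene of lowest r (dashed grey); the dotted line divides the columns of the PSII shift from those of the PSI shift. AT3G26630, picked by its r over these same columns, follows LHB1B2 through the dip in PSII light and the low value at 48 h of PSI light.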

How the data were processed

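Leaf RNA of 10 conditions was measured on nylon filters, per the labels. Each deposited value is a linear ratio of a condition to a reference for 1 spot. Direction, background correction, scaling and the way the 3 experiments became 1 column are not stated in the labels. Gene names came from the platform annotation, with symbols updated through the TAIR10.1 gene table, which held 643 of the 645 spots paired with 1 gene. Another 829 spots were paired with several genes and 1788 with none. Of 3262 spots, 34 were at 0 throughout, and a 0 was treated as missing, which left 3000 to 3163 features per column.

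Log2 ratios were centred on the column median with Python 3.11.15 and pandas 2.3.3. With 1 column per condition no test was possible, so counts use a 2-fold limit, and the number of arrays limits the precision. The genes named are LHB1B2 and PSAN, the measured genes of the photosynthesis lists, and for each of LHB1B2 and PSAN the 3 genes of highest and the 1 of lowest Pearson's r. These genes, lists and rules were chosen with earlier results of these data known. None of 8 genes marking other leaf cell types, senescence or stress had a spot of its own. The lowest r between any 2 columns over all features was −0.299, and −0.289 within the shift to PSI light, between 30 min and 48 h. Alternatives were the deposited scale, quantile normalization, other centres, other fold limits, a pseudocount, time points left out and a ratio inverted at 2 h and 48 h of PSI light. The centring, the 2-fold count and the ranking by r were checked on simulated data with large planted changes and no missing values. That check covers the calculation only, not how often a call or rank in these data is wrong.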

Additional observations from a re-analysis of the deposited data

Results flagged for a closer look

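LHB1B2 lay past 2-fold on opposite sides of the column median within the shift to PSI light, at 1.20 at 30 min and −3.44 at 48 h. The difference between these times was not tested, because each has 1 column. Over all features these columns correlated at −0.289, and whether they share 1 ratio direction is not stated in the labels. No condition has enough columns to look for a sample far from the others.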

How the results depend on the processing

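Of 317 values or calls checked under an alternative, 263 kept their side of the 2-fold limit or moved little. That includes values that crossed 0 but stayed within 2-fold. An example is the PSAN difference between the shifts at 8 h, −0.23 and 0.52 as deposited. Among the 263 are 16 at 1.5-fold and 16 at 3-fold, where the value was not recomputed and only the call could move. The 5 past 2-fold that changed sign all came with the ratio inverted at 2 h and 48 h of PSI light. These were LHB1B2 at 48 h of PSI light (3.44), its step from 8 h (3.21) and its 48 h difference between the shifts (−3.35), and PSAN at 48 h of PSI light (1.31) and its 48 h difference (−0.37). The PSAN steps became −0.51 from 30 min to 2 h and 1.62 from 8 h to 48 h, and its 2 h difference −1.36. No paired analysis was possible because each condition has 1 column. For LHB1B2, the deposited scale put 30 min of PSI light at 0.74, the step from 8 h to 48 h of PSII light at 0.49, the step from 30 min to 2 h of PSI light at −0.65 and the 8 h difference between the shifts at −0.85, all under 2-fold. A pseudocount of 0.432, which shrinks ratios, put LHB1B2 at −0.81 and −0.85 at 2 h and 8 h of PSII light and 0.87 at 30 min of PSI light. At a 3-fold limit the LHB1B2 values of −1.47, −1.38 and 1.20 and the PSAN value of −1.31 no longer pass, and at 1.5-fold the PSAN values of −0.96 and 0.94 in PSII light, 0.74 in white light and 0.91 in PSI light do.

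PSAN at 48 h of PSI light was −0.98 as deposited, −0.76 after quantile normalization and −0.83 with the pseudocount, each under 2-fold. PSAN at 2 h of PSII light was −1.06 as deposited and −1.05 after quantile normalization, and at 48 h 1.02 when centred on single-gene spots. Its steps were 0.50 (8 h to 48 h of PSII light) and −0.68 (30 min to 2 h of PSI light) as deposited. Its 30 min difference between the shifts was −1.07 after quantile normalization and −1.02 centred on complete features. LHB1B2 minus PSAN in white light of the PSII shift was −0.88 after quantile normalization and −0.77 with the pseudocount, and −0.78 at 48 h of PSI light with the pseudocount.

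The mean of LHB1B2 over the 4 times of PSII light was −0.76, and −1.03 without 48 h. Over PSI light it was −0.52, −1.10 without 30 min, 0.45 without 48 h, and 1.23 with the 2 h and 48 h columns inverted. The 5 higher photosystem values became 1 as deposited, 3 after quantile normalization and 13 at 1.5-fold, and the 6 lower became 10 at 1.5-fold. The r of 0.793 between the genes was 0.643 as deposited. Leaving out the 48 h column of PSI light, and inverting columns for single values, steps and differences, were chosen after seeing the data. What signal over background limits is unknown from ratios.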
